A study of Homo sapiens with 3 samples.

Results

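The major histone gene cluster of human chromosome 6, with the tRNA genes that lie among its histone genes, was examined for MYC-bound regions in the B cell line P493. All listed MYC regions on chromosome 6 with a summit from 26000000 to 28000000 (hg19) were taken. These were 110 of the 31378 regions in the list of untreated cells and 88 of the 27614 regions in the list of cells given MST-312. P493 is a human B cell line with a MYC transgene that tetracycline can shut off, and MST-312 is a small-molecule inhibitor of telomerase. The study asked how MST-312 changes the genomic binding of MYC by chromatin immunoprecipitation and sequencing (ChIP-seq) with the N262 antibody against MYC. It holds 3 samples: MYC ChIP from untreated P493 cells, MYC ChIP from P493 cells treated with MST-312, and an input of untreated P493 cells that served as the control for both lists. The labels give no dose or duration of MST-312 and no tetracycline state, and each condition is 1 library of 1 cell line. Differences between the lists therefore have no replicate check and no test, and the lists are set side by side.

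Replication-dependent histone genes encode the H1, H2A, H2B, H3 and H4 proteins that package newly made DNA. They have no introns, are transcribed in S phase, and many lie in divergent H2A and H2B pairs that share 1 promoter. The tRNA genes are transcribed by RNA polymerase III from promoters inside the gene, and MYC is known to bind the polymerase III factor TFIIIB as well as polymerase II promoters with E-boxes. In the RefSeq gene order of GRCh38.p14, the 240 genes from the first to the last of 55 listed histone genes on chromosome 6 included 98 tRNA genes, which is 21.1% of the 465 tRNA genes in that table. The order ran as 34 histone genes (H2AC1 to H4C8), 47 tRNA genes, 5 histone genes (H2BC11 to H2AC12), 51 tRNA genes and 16 histone genes (H2BC13 to H2BC17), with other genes in between. The MYC regions are given in hg19 and no hg19 annotation was used here, so no region below is assigned to a gene, and the gene order serves as background. The window was not matched to this gene order, and the listed genes need not all lie inside it.

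Of the E-box forms through which MYC is known to contact DNA, 3 were searched in the histone gene promoters, and they matched in 1 promoter. Other E-box variants were not searched. RefSeq promoter sequences (250 bases before to 50 after the start, GRCh38.p14) were found for 50 of the 55 listed histone genes, as 54 promoters. Some of these overlap as divergent pairs, and others repeat nearly the same sequence. H2BC12 and H2BC5 each enter at more than 1 start a few bases apart, and 1 H3C4 entry has the same sequence as H2AC7. The counts below are over promoters, so repeated sequences count more than once. The letters of each motif were searched on both strands, so capitals below may show the other strand's letters. The canonical E-box CACGTG occurred in 0 of the 54, against 7.26% of all 35116 promoters of the table. The variant CATGTG occurred in 0 of the 54, against 11.1% of all promoters. The variant CACGCG occurred in 1 of the 54, an upstream start of H3C6, against 11.4%. The first 7 letters of the tRNA gene B box, GGTTCGA, occurred in 0 of the 54 and in 0.86% of all promoters. A missing match says only that these letters are absent from these windows. The letters of elements that are typical of histone promoters, added after the data were seen, were frequent. The letters of the CCAAT box, at any position, occurred in 47 of the 54 (87.0%, against 34.6% of all promoters). They were in every H1, H2A, H2B and H3 promoter found and in 3 of 10 H4 promoters. Some matches lay far from the start, as at −249 in H2BC10, so 47 is not a count of CCAAT boxes at the usual place. The letters of the TATA box, TATAAA, occurred in 36 (66.7%, against 11.5%) at any position and on either strand. Some of these matches lay far from the start, as at −206 in H2AC8, so 36 is not a count of TATA boxes at the usual place. The start of the octamer that the factor OCT1 binds in H2B promoters, ATTTGCA, occurred in 24 (44.4%, against 4.20%), of which 13 were H2B and 9 were H2A promoters.

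The 250 bases before the start of 4 histone genes are shown 5′ to 3′ in the direction of the gene, with all matches to the listed letters in capitals. H3C6, at an upstream start, is shown because it alone held a searched E-box form. H2BC8, which is divergent to H2AC8, is shown for its octamer, CCAAT and TATA letters. The linker histone gene H1-4 and the core histone gene H4C11 are shown for comparison. Their positions are GRCh38.p14 and are not comparable with the hg19 positions of the MYC regions.
H3C6 (chr6:26223928-26224177, plus strand): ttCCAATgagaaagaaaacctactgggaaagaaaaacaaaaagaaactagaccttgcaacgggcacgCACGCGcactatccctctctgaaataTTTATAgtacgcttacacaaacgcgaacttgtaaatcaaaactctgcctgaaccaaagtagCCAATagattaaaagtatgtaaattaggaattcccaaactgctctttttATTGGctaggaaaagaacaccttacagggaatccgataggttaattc
H2BC8 (chr6:26216689-26216938, minus strand): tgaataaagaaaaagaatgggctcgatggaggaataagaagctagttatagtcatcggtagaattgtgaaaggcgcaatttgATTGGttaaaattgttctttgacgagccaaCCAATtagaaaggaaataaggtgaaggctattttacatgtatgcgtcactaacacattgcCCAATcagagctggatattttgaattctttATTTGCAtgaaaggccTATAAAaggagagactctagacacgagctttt
H1-4 (chr6:26156079-26156328, plus strand): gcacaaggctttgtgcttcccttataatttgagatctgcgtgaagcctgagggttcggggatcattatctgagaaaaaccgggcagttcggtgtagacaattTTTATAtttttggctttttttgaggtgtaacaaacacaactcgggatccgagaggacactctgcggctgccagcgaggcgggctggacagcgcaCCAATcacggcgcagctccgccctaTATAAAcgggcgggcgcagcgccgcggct
H4C11 (chr6:27823842-27824091, plus strand): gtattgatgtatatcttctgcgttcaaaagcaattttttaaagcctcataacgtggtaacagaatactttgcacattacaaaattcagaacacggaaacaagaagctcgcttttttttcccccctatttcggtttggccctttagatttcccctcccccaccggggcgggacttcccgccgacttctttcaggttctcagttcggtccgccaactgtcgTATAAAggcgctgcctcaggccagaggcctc
The H3C6 sequence holds the E-box variant, the H2BC8 sequence holds the octamer letters between a CCAAT and a TATA box, and the H4C11 sequence holds a TATA box alone.

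MYC regions were several times as dense in the histone and tRNA gene window as on the rest of chromosome 6. In the untreated list the window held 55.0 regions per Mb, against 6.999 per Mb on the rest of chromosome 6 (1181 regions), a ratio of 7.86. In the MST-312 list it held 44.0 regions per Mb against 6.20 (1046 regions), a ratio of 7.10. Among the 86 windows of 2 Mb on chromosome 6, counted on a grid from 0, the histone and tRNA gene window ranked 1st in both lists. The highest other window held 96 untreated and 82 MST-312 regions, and the median of the others was 8 in each list. That next window lay from 30 to 32 Mb, within the 28 to 34 Mb stretch that contains the major histocompatibility complex. The stretch as a whole held 34.5 untreated and 29.7 MST-312 regions per Mb. With 8.52% of all untreated and 7.76% of all MST-312 regions of chromosome 6, the window was thus dense in both libraries.

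**Figure D1:**
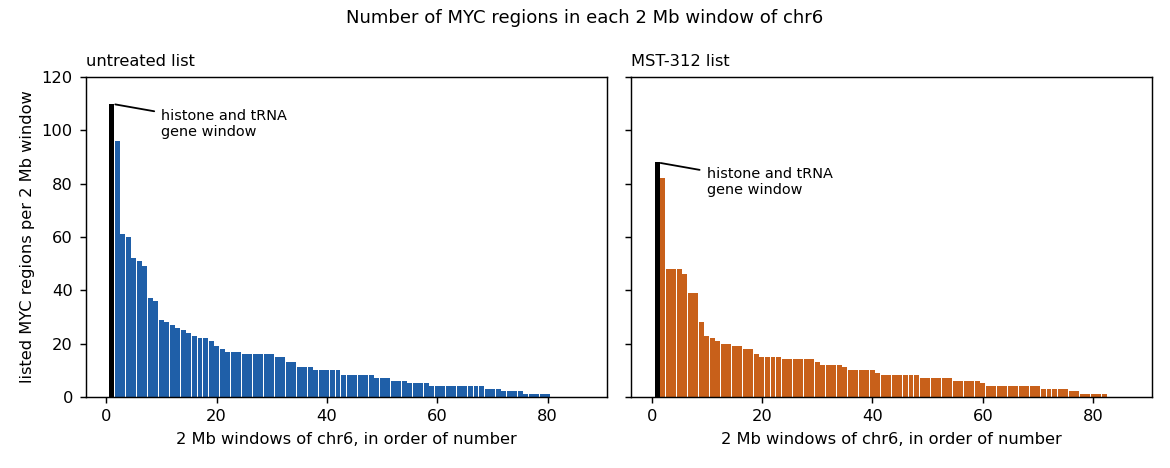
Each bar is the number of listed MYC regions in a 2 Mb window of chromosome 6, with the 86 windows ordered from most to fewest in the untreated list (left) and the MST-312 list (right). The black bar is the histone and tRNA gene window, with 110 and 88 regions, ahead of the next windows with 96 and 82.

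Neighbouring MYC summits lay close together in the window. The median distance between neighbouring untreated summits was 7.94 kb (quartiles 2.00 and 16.9 kb), against 34.3 kb on the rest of chromosome 6 (8.64 and 107 kb). In the MST-312 list it was 12.2 kb (3.22 and 25.8 kb), against 49.3 kb (12.3 and 156 kb). Of the 109 distances between untreated window summits, 61 were under 10 kb (56.0%, against 27.2% on the rest of the chromosome) and 15 were under 1 kb (13.8%, against 3.39%). Of the 87 MST-312 distances, 40 were under 10 kb (46.0%, against 21.6%) and 5 were under 1 kb (5.75%, against 3.83%). The share under 10 kb was thus higher inside the window than outside it in both lists, while the MST-312 share under 1 kb rests on 5 distances and lay near that of the rest of the chromosome. With regions closer than 1 kb merged, the window medians were 12.44 kb (untreated) and 14.41 kb (MST-312). Merged spacing is not given for the rest of chromosome 6, so these 2 values have no background.

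**Figure D2:**
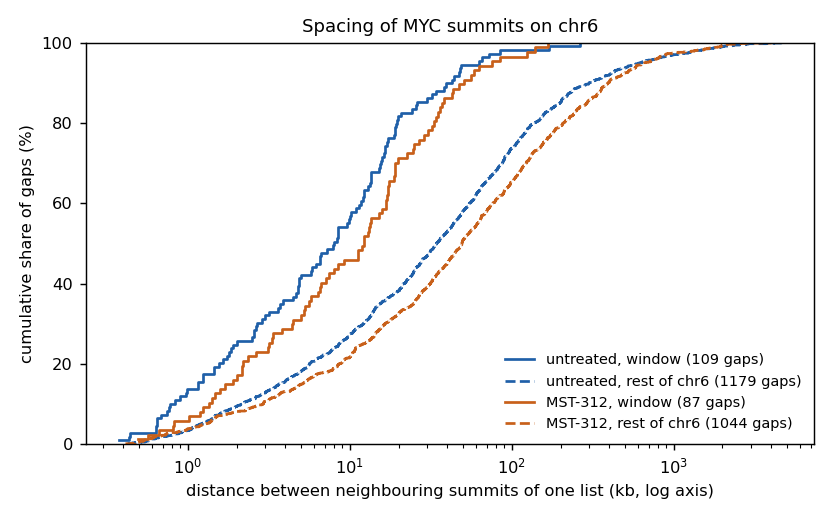
Cumulative share of distances between neighbouring MYC summits of the same list, in kb on a log axis, for the window (solid) and the rest of chromosome 6 (dashed) in untreated cells (blue) and after MST-312 (orange). Under 1 kb the MST-312 lines lie near each other (5.75% in the window and 3.83% outside), and the untreated lines are further apart (13.8% and 3.39%). At the medians both solid lines lie to the left of the dashed ones, at 7.94 and 12.2 kb against 34.3 and 49.3 kb.

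The MYC regions were not spread evenly inside the window. The first 500 kb (26 to 26.5 Mb) held 41 untreated and 28 MST-312 regions, the second held 16 and 15, the third held 20 and 20, and the last (27.5 to 28 Mb) held 33 and 25. No untreated summit fell between 26660067 and 26924769, a stretch of 265 kb, and no MST-312 summit between 26757657 and 26924757 (167 kb). The last 100 kb of the window held no summit in either list. The nearest summits before the window lay at 25992908 (untreated, pileup 80 fragments) and 25992922 (MST-312, 98 fragments), and the first summits inside were 26020770 and 26032179. After the last summits inside, at 27870967 and 27870397, the next ones lay at 28048709 (216 fragments) and 28048735 (131 fragments).

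Of the 110 untreated window regions, 70 had an MST-312 counterpart, meaning a region of the other list with at least 1 base in common, or 63.6% (exact Clopper-Pearson 95% interval 53.9 to 72.6). The background was 58.4% on the rest of chromosome 6 (55.6 to 61.3) and 53.6% over the whole untreated list. Of the 88 MST-312 window regions, 70 shared bases with an untreated region, which is 79.5% (69.6 to 87.4), against 68.3% on the rest of the chromosome (65.3 to 71.1) and 63.3% over the whole MST-312 list. The intervals cover counting error over regions alone. The untreated interval of the window contains the share on the rest of chromosome 6. In the MST-312 list the window share lay above that of the rest, and the 2 intervals overlapped. This order depended on the strength of the calls. Below a −log10 q of 20, 56.5% of 23 MST-312 window regions had a counterpart, against 37.3% of 445 on the rest. At −log10 q of at least 26 the order was reversed, with 88.7% against 95.2%. In the 28 to 34 Mb stretch the shares over all regions were 66.2% (59.3 to 72.6, untreated) and 82.0% (75.6 to 87.4, MST-312). By length, the shared bases were 48.5 kb, which is 49.3% of the untreated and 80.8% of the MST-312 bases in the window. On the rest of chromosome 6 they were 54.0% and 75.5%.

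**Figure D3:**
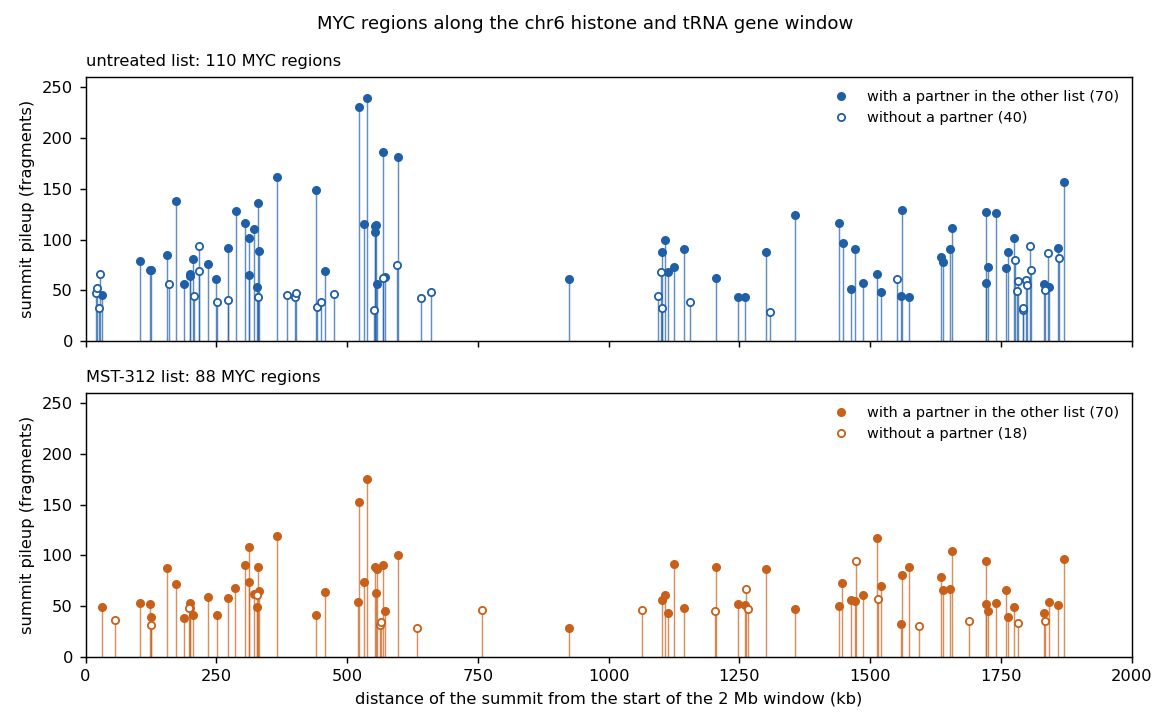
Summit pileup, the number of overlapping extended fragments at the summit, of each listed MYC region against its distance from the start of the 2 Mb window, for the untreated list (top) and the MST-312 list (bottom). Filled points have a counterpart in the other list (1 shared base or more) and open points have none. Each list has 70 filled points, with 40 open untreated and 18 open MST-312 points, and the tallest point of both lists stands between 500 and 600 kb.

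Groups of neighbouring MYC regions, defined as runs of at least 4 regions with summits under 10 kb apart, numbered 8 in the untreated list (48 regions) and 3 in the MST-312 list (20 regions). The longest untreated run, from 27774319 to 27806981, held 10 regions with pileups from 31 to 102 fragments, of which 1 had an MST-312 counterpart. That region was the first of the run (27774319 to 27775750, 102 fragments), and its MST-312 counterpart at 27774698 to 27776177 had 49 fragments. A further MST-312 region (27781761 to 27782688, 33 fragments) lay between 2 regions of the run without touching either, 0.114 kb from the nearer. The run at the start of the window, from 26020530 to 26032900, held 5 untreated regions with pileups from 33 to 66 fragments, of which 1 had an MST-312 counterpart. By contrast the run from 26305007 to 26331939, with 8 untreated regions of 43 to 136 fragments, had counterparts for 7. It was met by an MST-312 run from 26305550 to 26331938, with 8 regions of 49 to 108 fragments, of which 7 shared bases with untreated ones. The other untreated runs were at 26199072 to 26217618 (6 regions, 3 with a counterpart), 26440499 to 26458737 (4, 2), 26550772 to 26557292 (5, 4), 27094913 to 27115289 (6, 3) and 27831715 to 27841778 (4, 2). The other MST-312 runs were at 26188872 to 26205019 (5 regions, 4 with a counterpart) and 26553521 to 26572519 (7, 5). These untreated runs thus ranged from nearly all to almost none of their members listed again after MST-312. Runs were sought in the window alone and are small, so the range has no background from the rest of chromosome 6.

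MYC signal in the window was moderate in height. Summit pileup in the untreated window regions had its median at 68.5 fragments (quartiles 49.2 and 93.5, range 29 to 239), against 58 (41 and 91) on the rest of chromosome 6 and 62 over the whole list. The MST-312 regions had a median of 55.5 fragments (45.8 and 75.2, range 28 to 175), against 44 (35 and 65) and 50. The medians were above those of the rest of the chromosome in each list, while the share of window regions among the tallest was not. The window counts of such regions are small. Of the untreated window regions, 4 of 110 (3.64%) were in the top 10% of their list by pileup, against 83 of 1181 (7.03%) on the rest of chromosome 6. In the MST-312 list these were 4 of 88 (4.55%) against 69 of 1046 (6.60%). The local background of the input, back-calculated from pileup and fold enrichment, was also higher in the window, with medians of 6.75 against 5.78 fragments for untreated regions and 6.15 against 4.92 for MST-312 regions. Its part in the pileups was not tested. The median fold enrichment over that background was 7.97 in the window and 8.26 on the rest of the chromosome in the untreated list, and 7.63 and 7.21 in the MST-312 list.

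Each of the 8 window regions with the highest pileup in either list had a counterpart in the other. This does not set the window apart, since strong calls on the rest of chromosome 6 nearly always had one too. Outside the window, 174 of 175 untreated calls whose −log10 q reached 100 had a counterpart. So did all 191 MST-312 calls there whose value reached 50. The tallest window regions lay at 26536870 to 26539771 in the untreated list, with 239 fragments, and at 26537422 to 26539003 in the MST-312 list, with 175. They were also the longest window regions of their lists, at 2902 and 1582 bp. The untreated region at 26520443 to 26522758 (231 fragments) met 2 MST-312 regions, at 26521325 to 26521620 (54) and 26521842 to 26522685 (152). It was the only untreated region of the window that met more than 1 MST-312 region. A narrow region at 26568844 to 26569261, 418 bp wide, had 186 fragments and an MST-312 counterpart with 90. The region at 26596821 to 26597657 had 181 fragments and a counterpart with 100. That at 26365517 to 26365980 had 162 and a counterpart with 119. These 5 lay in the first 600 kb of the window. Near the far end of the window, the region at 27870182 to 27871611 had 157 fragments and its counterpart 96. The region at 26440499 to 26441245 had 149 fragments and its counterpart, 274 bp wide, had 41. The 8th untreated region by pileup, at 26172027 to 26173766, had 138 fragments and its counterpart 72.

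Of the 8 tallest MST-312 regions, 2 had a taller summit than their untreated counterparts. At 27513229 to 27513794 the MST-312 pileup was 117 fragments, and the untreated region at 27512885 to 27513609 had 66. At 26311207 to 26312265 the MST-312 pileup was 108, and the untreated region at 26311019 to 26312235 had 65. The other MST-312 region of this group without a counterpart among the 8 tallest untreated ones, at 27655016 to 27656374, had 104 fragments against 111. The highest pileup of the window stood at percentile 95.4 of the untreated list and 97.0 of the MST-312 list.

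Among the 67 cases in the window in which exactly 1 untreated region met exactly 1 MST-312 region, the untreated pileup was the higher in 53 and the MST-312 pileup in 14. The MST-312 share was thus 20.9% in the window, against 12.3% of 618 such pairs on the rest of chromosome 6 and 13.1% of 15265 over the whole lists. The median pileups of the window pairs were 83.0 (untreated) and 61.0 (MST-312) fragments, against 81.0 and 56.0 on the rest of the chromosome. These pileups are unscaled and come from libraries that kept 60805153 (untreated) and 55400354 (MST-312) tags, so a count of which is higher is a description of these libraries. The 14 pairs were found in every 500 kb piece of the window, with 3 of 24 pairs from 26 to 26.5 Mb, 1 of 8 from 26.5 to 27 Mb, 6 of 15 from 27 to 27.5 Mb and 4 of 20 from 27.5 to 28 Mb. An example is the region at 27573396 to 27573762, with 43 fragments in untreated cells and 88 after MST-312. Another is 27205125 to 27205546, with 62 and 88. In the opposite direction, the region at 27356511 to 27357202 had 124 fragments in untreated cells and 47 after MST-312. Summits of the window pairs lay a median of 48 bp apart, against 55 bp on the rest of chromosome 6, and 48 of 67 (71.6%) were within 100 bp.

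**Figure D4:**
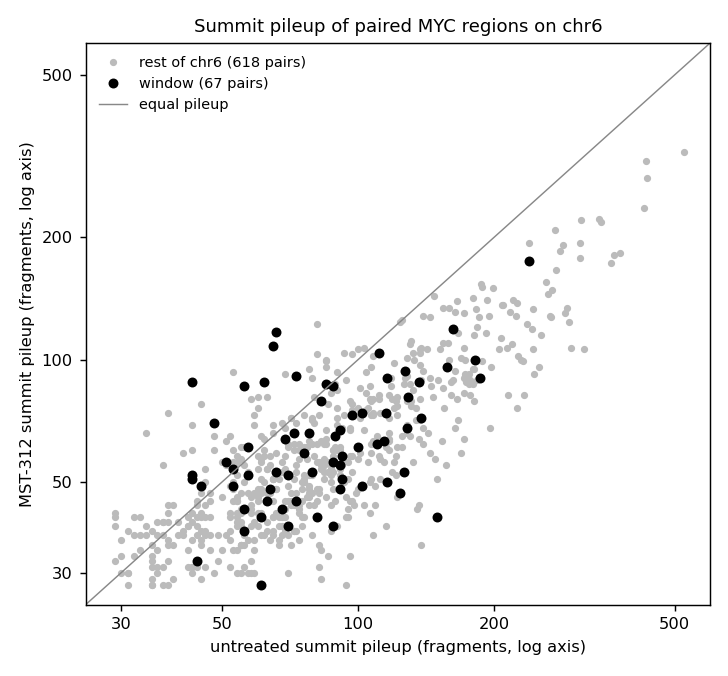
Summit pileup of paired MYC regions in the MST-312 list against the untreated list, both in fragments on log axes, for 67 pairs in the window (black) and 618 on the rest of chromosome 6 (grey). The line marks equal pileup, and 14 window pairs lie above it and 53 below.

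MYC regions of the window were shorter in the MST-312 list. The untreated regions had a median length of 800 bp (quartiles 462 and 1195), against 743 on the rest of chromosome 6, and the MST-312 regions one of 568 bp (377 and 932), against 590. Within the 67 pairs the medians were 973 bp (untreated) and 655 bp (MST-312), and the untreated region was the wider in 55 (82.1%). On the rest of the chromosome these medians were 993 and 780 bp, and the untreated region was the wider in 74.8% of pairs. In all, the window regions covered 98.4 kb in the untreated list and 60.0 kb in the MST-312 list, which is 39.0% less, and numbered 20% fewer. On the rest of chromosome 6 the MST-312 list covered 28.4% less and numbered 11.4% fewer regions. The libraries differed in kept tags and in redundant rate (0.24 in untreated cells and 0.49 after MST-312), and their part in these differences was not tested. The shortest window regions were 250 bp (26442779 to 26443028, untreated, 34 fragments) and 260 bp (27261545 to 27261804, MST-312, 51 fragments).

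Stronger calls within a list more often had a counterpart of any listed strength in the other list. Among untreated window regions with −log10 q of at least 26, 61 of 75 had an MST-312 counterpart (81.3%, 70.7 to 89.4), against 81.7% on the rest of chromosome 6. Where both lists were held to this level, the share was 56% of untreated window regions (44.1 to 67.5) and 79.2% of MST-312 window regions, against 63.6% and 79.5% without a threshold. The share under this double threshold is not given outside the window, so these values do not set the window apart. Calls at this level made up 68.2% of untreated window regions, against 59.4% on the rest of chromosome 6 and 70.0% in the 28 to 34 Mb stretch. They made up 60.2% of MST-312 window regions, against 41.7% and 51.7%. Among MST-312 window regions at this level, 47 of 53 had an untreated counterpart (88.7%, 77.0 to 95.7), against 415 of 436 on the rest of the chromosome (95.2%, 92.7 to 97.0). At −log10 q of at least 50, 22 of 23 MST-312 window regions and all 191 on the rest of the chromosome had one.

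The 40 untreated window regions without a counterpart had pileups from 29 to 94 fragments with a median of 47.5. Their tallest members lay at 26217169 to 26217618 and 27804692 to 27805622, with 94 fragments each, and at 27839344 to 27840340, with 87. Their distances to the closest MST-312 region were 12.2, 22.0 and 0.463 kb. Of the 40, 12 had an MST-312 region at most 1 kb off and 13 lay more than 10 kb from any, and 14 had −log10 q of at least 26. On the rest of chromosome 6, 128 of the 491 untreated regions without a counterpart reached that level. The 18 MST-312 regions without a counterpart had pileups from 28 to 94 fragments with a median of 40.5. Their tallest members lay at 27473476 to 27473857 (94 fragments, −log10 q of 62.5), 27263034 to 27263703 (67) and 26328253 to 26328522 (61). The nearest untreated regions were 1.71, 1.20 and 0.038 kb away. Of the 18, 4 lay within 1 kb of an untreated region and 5 lay more than 10 kb from any. The distance counts of both groups are for the window alone, where regions are denser, and have no background from outside it. Absence from a list is not absence of signal, since both lists stop near −log10 q of 13 (lowest values 13.01 and 13.02).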

How the data were processed

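MYC ChIP-seq regions were analysed from 2 lists, 1 untreated and 1 MST-312 library of P493 cells. The submitters' processing notes name CASAVA 1.8, Bowtie2 2.2.3 and the build hg19. Regions were called per library with MACS 2.0.10.20131216 against the same input, with a fragment length of 200 bp, a p-value threshold of 0.05 and up to 3 duplicate tags per position, per the file headers. The deposited pileup is a signal value (fragments at the summit, unscaled). Fold enrichment, as deposited, is the ratio of pileup to local background, whose values match 1 being added to both. The deposited −log10 p-value and q-value columns lack the minus sign in their names, and −log10 q starts at 13.01 and 13.02 under a filter the headers do not state, although these say that q would not be calculated. Positions are 1-based.

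From these, window membership, spacing, runs and overlap were computed in Python 3.11.15 (numpy 2.4.6, pandas 2.3.3, scipy 1.17.1, matplotlib 3.10.9). Overlap was tested on simulated data and checked with bedtools 2.31.1. Named regions are the 8 with the highest pileup per list, the 3 highest without a counterpart, the shortest and longest, runs of 4 or more, and the widest gap. The example pairs (27573396, 27205125 and 27356511) were chosen after their values were seen. The CCAAT box, TATA box and octamer letters were added to the promoter motifs after the data were seen. Promoters and gene order come from RefSeq (GRCh38.p14). The members and lists were chosen with earlier results of these data known. Without molecular identifiers, tags may be copies of 1 molecule. Alternatives covered the overlap rule, strength threshold, merging, membership and reference stretch. Region sequences and gene assignment were not used here, for want of an hg19 genome.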

Additional observations from a re-analysis of the deposited data

How the results depend on the processing

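Replicates could not be left out in turn. No paired analysis was possible because each condition has 1 sample. Of 48 alternative values, 10 moved beyond the share's interval, or, for numbers, lengths, ratios, pileups and spacings, by more than 1.5 times, and 38 did not. The share of untreated window regions with an MST-312 counterpart (63.6%) was 50.91% where 50% of each region had to be covered, 44.55% where summits had to lie within 100 bp, 74.55% where a gap of up to 1 kb was allowed and 81.33% where −log10 q had to reach 26 on the untreated side alone. The share of MST-312 window regions with an untreated counterpart (79.5%) was 63.64%, 55.68% and 88.68% under the first, second and last of these rules, the last taken on MST-312 regions. Apart from the −log10 q rule, these shares are given for the window alone and are not compared with the rest of chromosome 6. The MST-312 window held 53 regions at −log10 q of at least 26, in place of 88, and the untreated one 75 in place of 110. The median spacing of untreated summits (7.94 kb) was 12.44 kb with rows closer than 1 kb merged and 11.96 kb at −log10 q of at least 26. These alternative spacings are also given for the window alone. The density ratio of the window to the rest of chromosome 6 ranged from 7.36 to 9.19 (untreated) and from 6.82 to 10.3 (MST-312).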

Other observations

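Among windows of 2 Mb on chromosome 6 with at least 20 untreated MYC regions, 19 in number with the histone and tRNA gene window included, 3 had a higher share of regions listed in both libraries and 7 had a higher median pileup than that window. Among the 14 such windows of the MST-312 list, the numbers were 5 and 7. The window was thus 1st by number of regions and not by height or by shared calls.

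Very broad MYC regions were few in the window and on the rest of chromosome 6, and the window counts are small. In the untreated list, 4 of 110 regions (3.64%) were at least 2000 bp long, against 60 of 1181 (5.08%) on the rest of chromosome 6. The longest MST-312 window region was 1582 bp, and 20 of 1046 MST-312 regions on the rest of the chromosome (1.91%) were at least 2000 bp long. In the 28 to 34 Mb stretch, 12 of 207 untreated regions (5.80%) and 0 of 178 MST-312 regions reached this length.

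The density of regions varied over 100 kb steps, of which the 2 with the most untreated regions are given, chosen after their values were seen. The step from 500 to 600 kb into the window held 13 untreated and 12 MST-312 regions with median pileups of 113 and 80 fragments, and 10 of each were shared. The step from 1700 to 1800 kb held 14 and 8 regions with median pileups of 66 and 50.5 fragments, of which 7 in each list were shared.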
